A study of Mus musculus with 18 samples.

Results

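EGR and NR4A immediate early genes were followed in eosinophils sorted from the mouse small intestine. The set was chosen by gene symbol and holds Egr1, Egr2, Egr3, Nr4a1, Nr4a2, Nr4a3, Ier2 and Ier3, which are 8 of the 22708 genes in the expression table. Eosinophils from wild-type (WT), Ahr-/- and Ahrr-/- mice of strain C57/BL6 were profiled by RNA-seq. Each genotype had 6 samples, of which females gave 3 (F1 to F3) and males gave 3 (M1 to M3). The cells were sorted as CD11b+MHC-II-SiglecF+SSChi after enrichment with anti-CD11b, and RNA was isolated directly after the sort. The labels give no age. The study's methods give an age range in weeks for all experiments, with ages and sexes matched within each, and describe WT and Ahr-/- mice that were neither littermates nor housed together, so genotype, litter and cage cannot be told apart. The methods count mice as replicates, the labels do not say whether a sample is 1 mouse, and p-values measure the spread between these samples. Total counts recovered from the table were lowest in WT, from 3842977 to 8149200 (median 6022409). They were 6581818 to 10284124 (median 9647589) in Ahr-/- samples and 8788867 to 12046933 (median 10371556) in samples labelled Ahrr-/-. Every value given is the deposited variance-stabilized log2 value, on which a count of 0 reads 5.02, unless it is called a normalized count, meaning a count divided by the sample's size factor.

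Immediate early genes are transcribed within minutes of a stimulus from factors that are already in the cell, without new protein synthesis. EGR proteins are zinc-finger transcription factors that are typically switched on through ERK signalling and serum response factor, while the NR4A genes encode orphan nuclear receptors that are induced by calcium and cAMP signals and whose activity is set mainly by their abundance. Isolating cells from tissue is itself known to induce such genes, so their level in sorted cells can carry the handling as well as the state in the animal.

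The genotype labels were checked with Ahr, its repressor gene Ahrr and the AHR target genes Cyp1b1, Tiparp and Nqo1. Ahrr lay between 9.79 and 10.39 in WT, between 5.02 and 5.79 in Ahr-/- and between 9.95 and 10.93 in samples labelled Ahrr-/-. It was far lower in all 6 Ahr-/- samples than in any WT sample, with a log2 difference of -4.83 (SE 0.14, adjusted p = 4.95e-12), and it was not lower in the samples labelled Ahrr-/-, where the difference from WT was 0.28 (SE 0.18, adjusted p = 0.683) with 3 of 6 above the WT median. Cyp1b1, Tiparp and Nqo1 were also lower in all 6 Ahr-/- samples than in any WT sample, by log2 differences of -4.07, -2.60 and -1.82 (SE 0.24, 0.18 and 0.12, adjusted p = 1.93e-08, 1.56e-07 and 1.27e-07). The Ahr transcript itself was 13.40 to 14.40 in WT, 14.15 to 14.67 in Ahr-/- and 13.03 to 14.42 in samples labelled Ahrr-/-. Its difference of 0.61 between Ahr-/- and WT (SE 0.19, adjusted p = 0.0557) missed the threshold, with 6 of 6 above the WT median. That between Ahr-/- and samples labelled Ahrr-/- was 0.82 (SE 0.23, adjusted p = 0.0296) and passed it, with 6 of 6 above the other median. Which exons were deleted is not given in the sources used here, so a count over the whole gene checks neither deletion, and the Ahrr-/- samples are named by their label throughout.

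Of 10 eosinophil markers, 5 had a mean at least 1 above the lowest value. The receptors Ccr3 (12.39 to 13.93), Siglecf (9.81 to 11.63) and Il5ra (10.04 to 11.68) were high in every sample and Alox15 was the most abundant. Of the granule genes, Prg2 ranged from 6.48 to 9.95, Epx stayed between 5.46 and 6.22, and Ear6 was at 0 in 16 of 18 samples. Epithelial markers were also present: all 9 passed the same minimum, Epcam ranged from 8.84 to 11.76, and the most abundant was Lyz1, whose reads can be shared with its near-identical copy Lyz2. The summed epithelial level, in normalized counts, was 24843, 9733 and 10723 in WT females F1 to F3 and 9013, 12254 and 20195 in WT males M1 to M3. In Ahr-/- samples it was 9165, 9330 and 12361 in females and 9274, 8897 and 10237 in males, and in samples labelled Ahrr-/- it was 14428, 10679 and 35571 in females and 55981, 26192 and 53007 in males. It was thus above 20000 in WT F1 and M3 and in F3, M1, M2 and M3 of the samples labelled Ahrr-/-, and in none of the Ahr-/- samples. Of 10 macrophage, monocyte and dendritic cell markers, 6 passed the minimum, with H2-Ab1 the most abundant. Their summed level was 500, 630 and 785 in WT females and 418, 1194 and 607 in WT males. It was 240, 85.2 and 383 in Ahr-/- females and 1607, 1596 and 702 in Ahr-/- males, and 267, 1168 and 1574 in females and 1108, 2674 and 2218 in males labelled Ahrr-/-. Both sums move with groups compared here, so they are given again beside the results they touch.

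All 8 members were detected in every sample and passed the minimum mean. Levels are compared between genes as normalized counts per kilobase of merged exons. In WT the median was 636 for Egr1, 450 for Nr4a1, 239 for Ier2, 105 for Nr4a2, 79 for Nr4a3, 55.8 for Ier3, 51.7 for Egr2 and 19.5 for Egr3. The order was clear at its lower end, with Egr2 above Egr3 in 6 of 6 WT samples, and Nr4a2 lay above Nr4a3 in 6 of 6. Other neighbours crossed: Egr1 was above Nr4a1 in 5 of 6, Nr4a1 above Ier2 in 4 of 6, Ier2 above Nr4a2 in 5 of 6, Ier3 above Egr2 in 4 of 6, and Nr4a3 above Ier3 in only 2 of 6 WT samples. In Ahr-/- samples the highest median was that of Nr4a1, at 857 per kilobase against 440 for Egr1, and in samples labelled Ahrr-/- it was that of Egr1, at 1.1e+03 against 524 for Nr4a1.

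**Figure D1:**
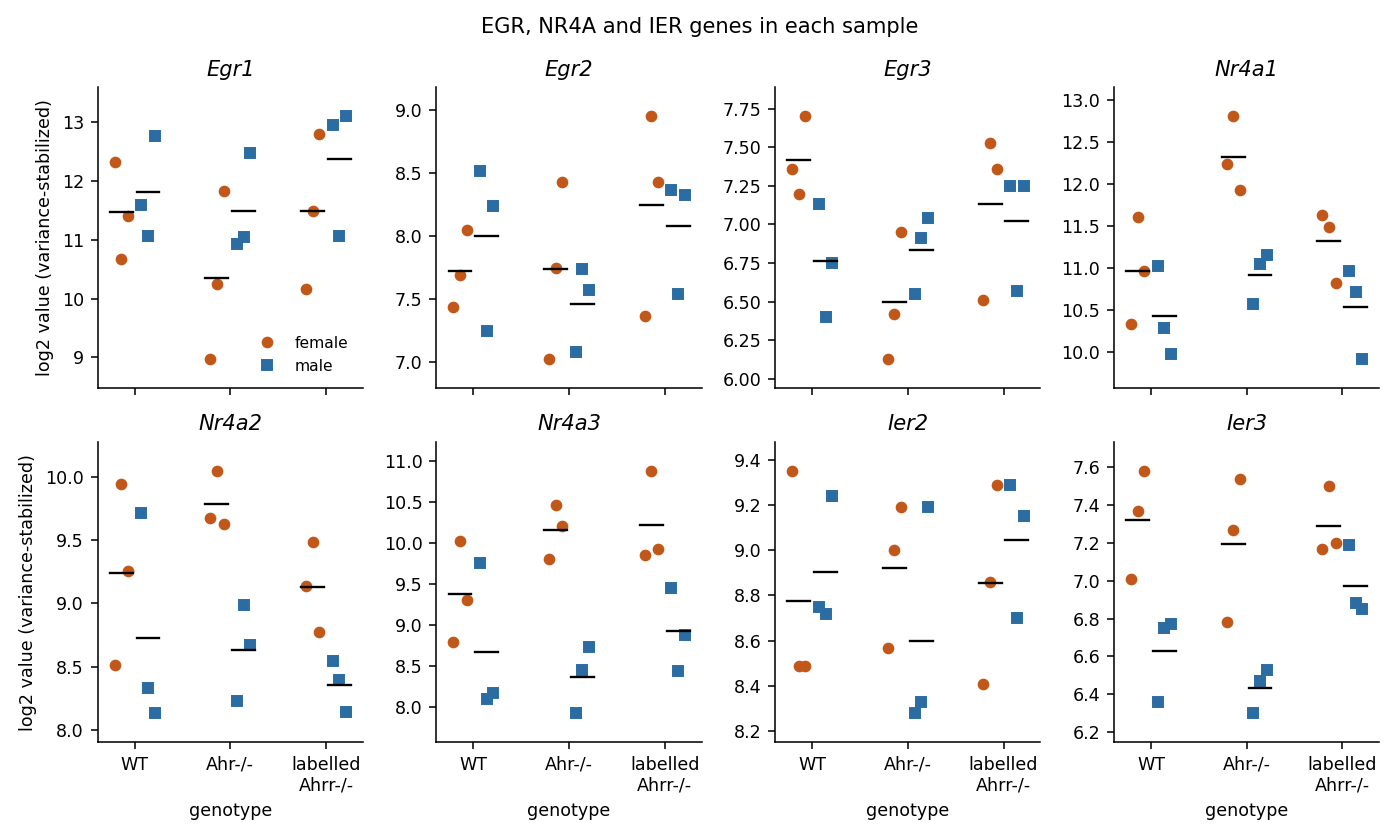
Variance-stabilized log2 values (vertical axes, each with its own range) of the 8 genes in each of 18 samples by genotype (horizontal axes), with circles for females, squares for males and lines at the mean of 3 samples. Nr4a1 was highest in the 3 Ahr-/- females (11.92 to 12.80), and Nr4a1, Nr4a2, Nr4a3 and Ier3 tended to lie lower in males.

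Egr1, a zinc-finger factor induced by growth factors and stress, varied most. In WT it ranged from 10.68 to 12.77 (median 11.51), in Ahr-/- from 8.98 to 12.47 (median 10.99) and in samples labelled Ahrr-/- from 10.16 to 13.10 (median 12.14). The lowest sample was Ahr-/- F1 and the highest were males M1 and M3 labelled Ahrr-/-, and the 3 groups overlapped widely. Egr2, which restrains lymphocyte activation and directs Schwann cell myelination, ranged from 7.25 to 8.52 (median 7.87) in WT, 7.03 to 8.43 (median 7.66) in Ahr-/- and 7.37 to 8.95 (median 8.35) in samples labelled Ahrr-/-. Egr3, a close relative of Egr2, ranged from 6.40 to 7.70 (median 7.16) in WT, 6.13 to 7.04 (median 6.73) in Ahr-/- and 6.51 to 7.53 (median 7.25) in samples labelled Ahrr-/-. None of the EGR genes passed the test between genotypes. All 6 Ahr-/- samples had less Egr3 than the WT median, with a log2 difference of -0.43 (SE 0.21, adjusted p = 0.232). The differences between Ahr-/- and WT were -0.73 (SE 0.44, adjusted p = 0.344) for Egr1, with 4 of 6 below the WT median, and -0.26 (SE 0.25, adjusted p = 0.555) for Egr2, with 5 of 6 below it. For samples labelled Ahrr-/- against WT they were 0.29 (SE 0.47) for Egr1, 0.30 (SE 0.28) for Egr2 and -0.01 (SE 0.21) for Egr3, with adjusted p of 0.855, 0.754 and 0.989. Between Ahr-/- and samples labelled Ahrr-/- they were -1.01 (SE 0.52), -0.56 (SE 0.27) and -0.42 (SE 0.21), with adjusted p of 0.190, 0.166 and 0.178 and 5, 5 and 6 of 6 Ahr-/- samples below the other median. A p above the threshold does not show that values were alike, and the SE of Egr1 is large enough to hide a sizeable difference. Over 27 alternatives its difference between Ahr-/- and WT ran from -1.12 to -0.02, and from -1.01 to -0.38 with 1 sample left out. Against samples labelled Ahrr-/- it turned to 0.29 with the epithelial level as a covariate. The epithelial sum was at most 12361 in Ahr-/-, 24843 in WT and 55981 in samples labelled Ahrr-/-. Without F1 labelled Ahrr-/-, the adjusted p for Egr2 between Ahr-/- and samples labelled Ahrr-/- was 0.0387, within a range of 0.0387 to 0.877 over 26 alternatives. With a replicate block, Egr1 was called in that comparison (adjusted p = 0.00995, range 0.00995 to 0.918), though replicate numbers were not taken to pair the samples.

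Nr4a1, also known as Nur77, was the only member that passed the test between WT and Ahr-/- samples. It measured 10.33, 11.60 and 10.96 in WT females F1 to F3 and 11.02, 10.28 and 9.98 in WT males M1 to M3. It measured 12.23, 12.80 and 11.92 in Ahr-/- females and 10.57, 11.04 and 11.15 in Ahr-/- males. The 3 Ahr-/- females lay above every WT sample, and the 3 Ahr-/- males lay within the WT range. Samples labelled Ahrr-/- held 11.63, 11.49 and 10.82 in females and 10.96, 10.71 and 9.92 in males, which overlapped WT, with F1 above and M3 below every WT sample. Between WT and Ahr-/- samples, 1 of 8 members passed the adjusted threshold of 0.05, beside 8.84% of all 11346 genes tested (1003 genes, 5.16% higher and 3.68% lower), and Nr4a1 was that member. It rose by 0.92 (SE 0.24, adjusted p = 0.0269), from a mean of 10.70 to 11.62, with 5 of 6 Ahr-/- samples above the WT median, and the mean normalized count was 2.06 times as high. Leaving out 1 sample ended the call in 5 of 12 cases, with adjusted p of 0.0665 without WT F3, 0.0594 without WT M3, 0.0664 without Ahr-/- F1, 0.0656 without Ahr-/- F2 and 0.0568 without Ahr-/- M3. It also ended with no minimum mean (0.132) and with no sex covariate (0.115), and the adjusted p ranged from 0.00501 to 0.435 over 27 alternatives.

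The rise of Nr4a1 was larger among females than among males, though the difference was not shown. In females alone the log2 difference between Ahr-/- and WT was 1.35 (adjusted p = 0.0561) and in males alone it was 0.50 (adjusted p = 0.435). The interaction of genotype and sex was -0.85 (SE 0.45, adjusted p = 0.954). The epithelial sum was at most 12361 in Ahr-/- samples and above 20000 in WT F1 and M3. The macrophage sum was 240, 85.2 and 383 in Ahr-/- females, below all WT samples (418 to 1194), and 1607, 1596 and 702 in Ahr-/- males. With the mean epithelial level as a covariate, chosen after seeing the data, the difference was 0.47 (adjusted p = 0.0825), and without samples whose epithelial sum exceeded 20000 it was 0.65 (adjusted p = 0.0774). With the mean macrophage marker level as a covariate it was 0.89 (adjusted p = 0.0219). The value of Nr4a1 was thus lower with the epithelial level as a covariate and close to unchanged with the macrophage level, and the part of the epithelial cells in the result was not tested. Other marker sums also differed between these groups. The sum of 8 fibroblast and endothelial markers, of which 7 reached the minimum and Pecam1 was the most abundant, was 1921 to 2374 in Ahr-/- and 2637 to 3841 in WT, so that all Ahr-/- samples lay below all WT samples. The eosinophil sum was 38503 to 49555 in Ahr-/- and 24866 to 38211 in WT, with all Ahr-/- samples above all WT samples. The sum of 7 neutrophil markers, 3 at the minimum and Cxcr2 the most abundant, was 486 to 640 in WT, and 5 of 6 Ahr-/- samples lay above that range (692, 1494, 1129, 1010 and 830, with 499 in F2). The sum of 8 pancreatic acinar markers, 4 at the minimum and Ctrb1 the most abundant, was 1340, 960 and 1227 in WT females and 46.1, 115 and 3454 in WT males. It was 47.7, 15.6 and 27.3 in Ahr-/- females, below all WT females, and 404, 27.3 and 29.6 in Ahr-/- males. The part of these cell types in the result was not tested. In these bulk samples, fewer cells of a type and less RNA per cell cannot be told apart.

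Nr4a2 and Nr4a3, the other receptors of the family, did not pass the test between genotypes. Nr4a2 ranged from 8.13 to 9.95 (median 8.88) in WT, from 8.23 to 10.05 (median 9.31) in Ahr-/- and from 8.14 to 9.49 (median 8.65) in samples labelled Ahrr-/-. Nr4a3 ranged from 8.09 to 10.03 (median 9.04), from 7.92 to 10.46 (median 9.27) and from 8.44 to 10.88 (median 9.65) in the same order. Within each genotype the higher values were mostly those of females. Differences between Ahr-/- and WT were 0.22 (SE 0.27, adjusted p = 0.663) for Nr4a2, with 4 of 6 above the WT median, and 0.24 (SE 0.30, adjusted p = 0.671) for Nr4a3, with 3 of 6 above it. With 1 sample left out they were 0.03 to 0.48 for Nr4a2 and 0.05 to 0.54 for Nr4a3. With the epithelial level as a covariate they turned to -0.27 and -0.20, neither past the threshold. Against WT, samples labelled Ahrr-/- differed by -0.24 (SE 0.28, adjusted p = 0.798) for Nr4a2, by 0.55 (SE 0.32, adjusted p = 0.671) for Nr4a3 and by 0.23 (SE 0.26, adjusted p = 0.791) for Nr4a1. In that comparison 0 of 8 members passed the limma test, beside 0.0779% of 11546 genes (9 genes), and 0 of 8 members had an unadjusted p under 0.05, as did 853 of all genes.

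Between Ahr-/- samples and those labelled Ahrr-/-, below called the labelled knockouts, with no WT sample in the fit, Nr4a1 was the only member to pass the threshold (1 of 8, beside 14.9% of 11474 genes, 6.84% higher and 8.04% lower in Ahr-/-). It was higher in Ahr-/- by 0.70 (SE 0.22, adjusted p = 0.0496), with 5 of 6 Ahr-/- samples above the other median. Because both comparisons of Nr4a1 share the 6 Ahr-/- samples, they are not independent. Leaving out 1 sample ended the call in 7 of 12 cases: Ahr-/- F1 (0.0936), F2 (0.112), M2 (0.0873) and M3 (0.104), and F2 (0.0563), F3 (0.108) and M3 (0.113) of those labelled Ahrr-/-. It was also lost with the epithelial level as a covariate (difference 0.31, adjusted p = 0.761), the macrophage level as a covariate (0.29, adjusted p = 0.548) and samples with an epithelial sum above 20000 left out (0.76, adjusted p = 0.158). The last of these fits kept only the females F1 and F2 of those labelled Ahrr-/-, and its difference was not smaller. In these fits, in the same order, 297, 313 and 290 of all genes were called, against 1708 in the fit as reported. No or a stricter minimum, limma voom, no sex covariate, the groups fitted together, a robust trend and each sex alone also ended the call. Over 27 alternatives the adjusted p ranged from 0.0287 to 0.761. Marker sums moved with these groups too. The epithelial sum was 8897 to 12361 in Ahr-/- and 10679 to 55981 in samples labelled Ahrr-/-, and the macrophage sum was 85.2 to 1607 and 267 to 2674. The eosinophil sum was 38503 to 49555 and 14322 to 38775, overlapping only through Ahr-/- M2. The fibroblast and endothelial sum was 1921 to 2374 and 2485 to 3928, without overlap. The T cell and innate lymphocyte sum was 23.8 to 99.9 in Ahr-/- and 112 to 176 in samples labelled Ahrr-/- other than F1 (17.6). The sum of B and plasma cell markers, with 5 of 6 in the table, 2 at the minimum and Jchain the most abundant, was 67.9 to 726 in Ahr-/- and 321 to 6004 in samples labelled Ahrr-/-. Their part in the result was not tested. Nr4a2 was higher by 0.46 (SE 0.16, adjusted p = 0.0675), with 5 of 6 above the other median, and missed the threshold. It was called with centring (0.0475), with quantile normalization (0.0489), without Ahr-/- M1 (0.0394) and without F2 labelled Ahrr-/- (0.0453), and its adjusted p ranged from 0.0394 to 0.774 over 27 alternatives. The other members had adjusted p of 0.155 for Ier3 (difference -0.32, SE 0.15, 4 of 6 below), 0.356 for Nr4a3 (difference -0.31, SE 0.22, 3 of 6 below) and 0.547 for Ier2 (difference -0.19, SE 0.20, 4 of 6 below).

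Ier2, which encodes a nuclear protein induced with the EGR genes, overlapped across all genotypes. It ranged from 8.49 to 9.35 (median 8.73) in WT, 8.28 to 9.19 (median 8.78) in Ahr-/- and 8.41 to 9.29 (median 9.01) in samples labelled Ahrr-/-. Ier3, which regulates survival and ERK and NF-kB signalling, was 7.01, 7.37 and 7.58 in WT females and 6.36, 6.75 and 6.77 in WT males, and in Ahr-/- it was 6.78, 7.27 and 7.54 in females and 6.30, 6.47 and 6.53 in males. It was 7.17, 7.50 and 7.20 in females and 7.19, 6.88 and 6.85 in males of the samples labelled Ahrr-/-. In WT and Ahr-/- every male lay below every female, and the share of all genes that do so was not counted. Differences between Ahr-/- and WT were -0.08 (SE 0.20, adjusted p = 0.845) for Ier2, with 3 of 6 below the WT median, and -0.16 (SE 0.15, adjusted p = 0.546) for Ier3, with 4 of 6 below it. Samples labelled Ahrr-/- differed from WT by 0.11 (SE 0.19, adjusted p = 0.867) for Ier2 and 0.16 (SE 0.15, adjusted p = 0.760) for Ier3, with 4 of 6 above the WT median for each.

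**Figure D2:**
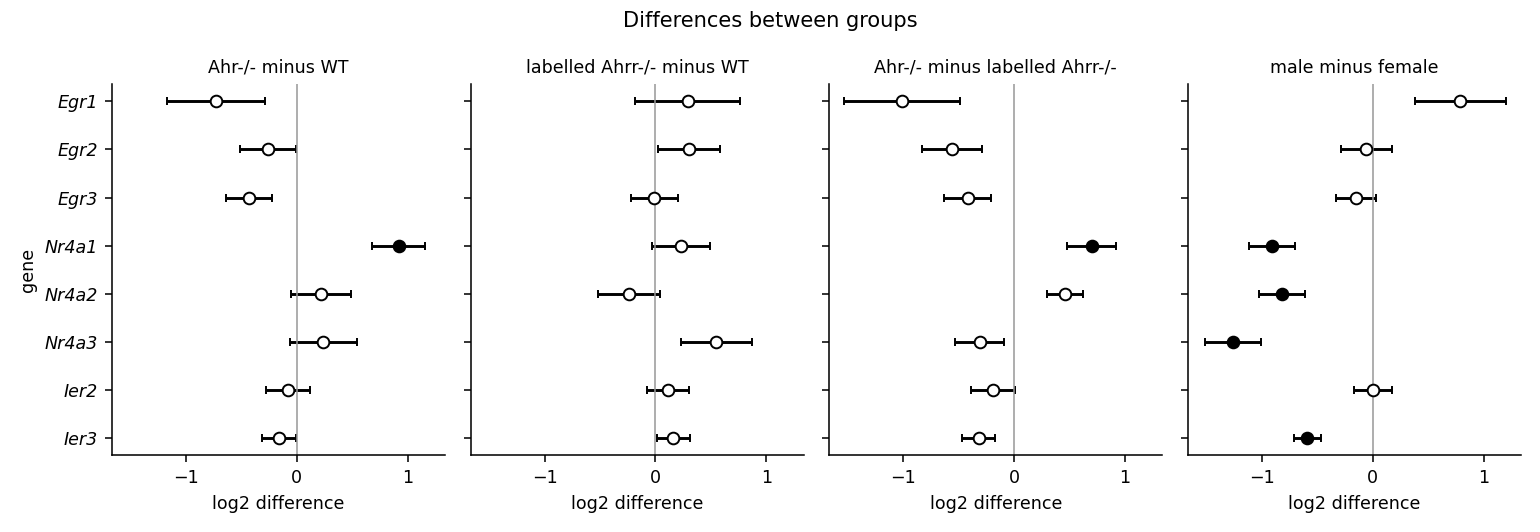
Log2 differences (horizontal axes) of the 8 genes (vertical axis) with 1 SE on either side, from limma on 12 samples for genotype and 18 for sex, filled where the adjusted p was below 0.05. Filled points are Nr4a1 in both comparisons with Ahr-/-, at 0.92 and 0.70, and Nr4a1, Nr4a2, Nr4a3 and Ier3 between the sexes, at -0.91, -0.82, -1.26 and -0.59.

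More members passed the test between the sexes, over 18 samples, than between genotypes, over 12. With all samples, with genotype in the fit, 4 of 8 members were lower in males, beside 3.06% of 11468 genes called (351 genes), with 2.46% lower (282 genes) and 0.602% higher. Nr4a3 measured 8.79, 10.03 and 9.30 in WT females and 9.75, 8.09 and 8.17 in WT males, 9.81, 10.46 and 10.21 in Ahr-/- females and 7.92, 8.45 and 8.73 in Ahr-/- males, and 9.85, 10.88 and 9.93 in females and 9.45, 8.44 and 8.87 in males labelled Ahrr-/-. Males M1, M2 and M3 of Ahr-/- and of the samples labelled Ahrr-/- lay below all females of their genotype, while WT overlapped through the high value of WT M1. The difference was -1.26 (SE 0.25, adjusted p = 0.00978), with 9 of 9 males below the female median and a mean normalized count that was 2.6 times as high in females. Nr4a2 was 8.51, 9.95 and 9.26 in WT females and 9.72, 8.33 and 8.13 in WT males, 9.68, 10.05 and 9.63 in Ahr-/- females and 8.23, 8.99 and 8.67 in Ahr-/- males, and 9.14, 9.49 and 8.77 in females and 8.54, 8.39 and 8.14 in males labelled Ahrr-/-. Its difference was -0.82 (SE 0.21, adjusted p = 0.0382), with 8 of 9 males below the female median. Nr4a1 fell by 0.91 (SE 0.21, adjusted p = 0.0235) in males and Ier3 by 0.59 (SE 0.12, adjusted p = 0.0128), each with 9 of 9 males below the female median. Egr1 was higher in males by 0.79 (SE 0.41, adjusted p = 0.315), Egr2 and Egr3 differed by -0.06 and -0.15 (SE 0.23 and 0.18, adjusted p = 0.919 and 0.704) and Ier2 by 0.00 (SE 0.17, adjusted p = 0.998), with 5 of 9 males above the female median for Egr1 and 5, 7 and 5 of 9 below it for Egr2, Egr3 and Ier2. The direction of Ier2 turned with quantile normalization, to 0.01.

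The macrophage sum was higher in males than in females in the Ahr-/- samples and overlapped in the others. The sum of 5 mast cell markers, 1 at the minimum, with Kit the most abundant, was 71.2, 179 and 138 in WT females and 90.2, 58.8 and 77.6 in WT males. It was 342, 538 and 136 in Ahr-/- females and 69.5, 60.2 and 78.1 in Ahr-/- males, and 215, 161 and 185 in females and 183, 63.4 and 175 in males labelled Ahrr-/-. In Ahr-/- samples all females thus lay above all males, and the sexes overlapped in the others. The same held for the eosinophil sum, at 45359, 49555 and 44676 in Ahr-/- females and 39540, 38503 and 44543 in Ahr-/- males, and for the fibroblast and endothelial sum, at 2195, 2374 and 2182 against 1957, 1921 and 2107. The T cell and innate lymphocyte sum, of 8 of 9 markers in the table with 2 at the minimum, was 137, 83.2 and 163 in WT females and 23.1, 70.3 and 75.2 in WT males, without overlap, and the sexes overlapped in the other groups. Of 9 stress and heat shock genes tested, 8 had a lower estimate in males, with a median of -0.53 beside 0.01 over all genes. An unadjusted p under 0.05 was reached by 5 of them, beside 2145 of all 11468 genes, and 1 was called, beside 3.06%. With the mean macrophage level as a covariate, chosen after seeing the data, 0 of 8 members passed the limma test between the sexes, and 23 of all genes did. The log2 differences were then -0.65 for Nr4a1 (adjusted p = 0.235), -0.69 for Nr4a2 (0.255), -1.09 for Nr4a3 (0.117) and -0.65 for Ier3 (0.0627). With the epithelial level as a covariate Nr4a2 was not called (0.051), while Nr4a1 (0.0209) and Nr4a3 (0.00944) were. With no minimum mean Nr4a1 (0.0511) and Nr4a2 (0.082) were not called, nor was Nr4a2 without samples whose epithelial sum exceeded 20000 (0.0523). The part of these cell types and of stress in the sex difference was not tested. Leaving out 1 sample ended the call of Nr4a1 for WT F2 (0.0561), WT M3 (0.0551), Ahr-/- F2 (0.0550) and Ahr-/- M1 (0.0573). For Nr4a2 it held only without WT F1, WT M1, or F3 or M1 labelled Ahrr-/-, and ended without any of the other 14 samples, with adjusted p from 0.0502 without WT F3 to 0.093 without Ahr-/- M1. Nr4a3 and Ier3 kept their calls with each of the 18 samples left out. Over the alternatives the adjusted p ranged from 0.00473 to 0.235 for Nr4a1, 0.002 to 0.255 for Nr4a2, 0.000332 to 0.117 for Nr4a3 and 0.00611 to 0.0627 for Ier3.

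In each genotype the mean of the NR4A genes was lower in males. For Nr4a1 the difference between 3 males and 3 females was -0.54 in WT, -1.39 in Ahr-/- and -0.78 in samples labelled Ahrr-/-, without overlap in Ahr-/- only. For Nr4a2 it was -0.51, -1.16 and -0.78, and for Nr4a3 -0.70, -1.79 and -1.30, without overlap in both groups other than WT, and Ier3 had -0.70, -0.76 and -0.32, without overlap in WT and Ahr-/-. Egr3 gave -0.66 in WT with no overlap, 0.33 in Ahr-/- and -0.11 in samples labelled Ahrr-/-. The share of all genes without overlap between 3 males and 3 females was not counted here. Whether the separation is particular to these members was therefore not tested. None of the interactions of genotype with sex passed the limma test. Between WT and Ahr-/- samples 0 of 8 members did, beside 0% of 11346 genes, and 533 genes had an unadjusted p under 0.05, among them 1 member, Egr3, whose difference between males and females was -0.66 in WT and 0.33 in Ahr-/- (SE of the interaction 0.34, adjusted p = 0.954). The interaction was -1.09 (SE 0.55, adjusted p = 0.954) for Nr4a3, -0.65 (SE 0.54, adjusted p = 0.959) for Nr4a2 and -0.06 (SE 0.30, adjusted p = 0.989) for Ier3. The interaction with samples labelled Ahrr-/- against WT, and that between the labelled knockouts, had 0 of 8 members called and 0 of 8 with an unadjusted p under 0.05, beside 544 and 375 genes of all tested.

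Within genotype and sex, 2 of 3 pairs of EGR genes, 2 of 3 pairs of NR4A genes and the pair of Egr1 with Ier2 were correlated past the threshold, and no pair of an EGR with an NR4A gene was. Over 18 samples, after subtracting the mean of each genotype and sex, 28 pairs were compared by Pearson's r and Spearman's rho with permutation p-values adjusted over the 28 pairs. By r 5 pairs passed, all positive, and by rho 4 of these did. The share over pairs of all genes was not analysed here, so whether the count is particular to the set was not tested. The closest genes outside the set, among 11468, reached r as high with the members (Ppp3ca 0.97 with Nr4a1, Ykt6 0.90 with Egr1). Egr2 and Egr3 had r = 0.95 (permutation p = 0.0002, adjusted p = 0.00243; rho = 0.95, permutation p = 0.0002, adjusted p = 0.0028), and r was 0.93 without the 2 samples farthest from the median of Egr2. Egr1 and Ier2 had r = 0.90 (permutation p = 0.00015, adjusted p = 0.00243; rho = 0.92, permutation p = 0.0002, adjusted p = 0.0028), and 0.90 without 2 samples. Nr4a1 and Nr4a2 had r = 0.86 (permutation p = 0.00026, adjusted p = 0.00243; rho = 0.87, permutation p = 0.00051, adjusted p = 0.00476), and 0.86 without 2 samples. Nr4a2 and Nr4a3 had r = 0.87 (permutation p = 0.00189, adjusted p = 0.0132; rho = 0.86, permutation p = 0.00233, adjusted p = 0.0163), and 0.80 without 2 samples. Egr1 and Egr3 had r = 0.75 (permutation p = 0.00809, adjusted p = 0.0453; rho = 0.73, permutation p = 0.0105, adjusted p = 0.0589), and 0.70 without 2 samples. Across the families, Egr1 and Nr4a1 had r = -0.48 (permutation p = 0.0903, adjusted p = 0.211; rho = -0.44, permutation p = 0.122, adjusted p = 0.262), and -0.35 without 2 samples. Egr2 and Nr4a3 had r = 0.64 (permutation p = 0.0218, adjusted p = 0.0872; rho = 0.64, permutation p = 0.0176, adjusted p = 0.072), and 0.59 without 2 samples. For Egr3 and Nr4a3 r was 0.57 (permutation p = 0.0407, adjusted p = 0.127; rho = 0.56, permutation p = 0.0335, adjusted p = 0.117), and 0.52 without 2 samples.

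**Figure D3:**
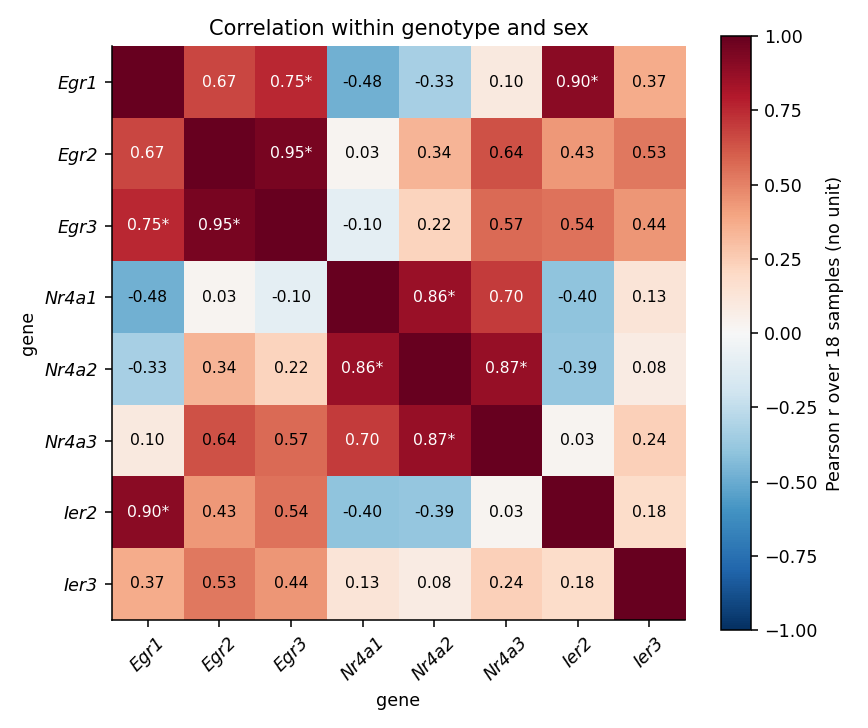
Pearson r between the 8 genes (both axes) over 18 samples after subtracting the mean of each genotype and sex, with colour and number giving r and an asterisk where the permutation p adjusted over 28 pairs was below 0.05. The highest values join Egr2 with Egr3 (0.95), Egr1 with Ier2 (0.90) and the neighbouring NR4A genes (0.86 and 0.87), and Egr1 with Nr4a1 is negative (-0.48).

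The same residuals were compared with marker lists, a stress list and total count in 88 relations, none of which passed after adjustment. The epithelial sum went with Egr1 at r = 0.74 (permutation p = 0.00348, adjusted p = 0.104; rho = 0.67, permutation p = 0.00856, adjusted p = 0.251), and 0.67 without 2 samples. It went with Ier2 at r = 0.75 (permutation p = 0.00354, adjusted p = 0.104; rho = 0.70, permutation p = 0.00503, adjusted p = 0.221), and 0.64 without 2 samples. With Nr4a1 it had r = -0.69 (permutation p = 0.0217, adjusted p = 0.318; rho = -0.65, permutation p = 0.0308, adjusted p = 0.348), and -0.56 without 2 samples. With Nr4a2 it had r = -0.69 (permutation p = 0.0108, adjusted p = 0.238; rho = -0.64, permutation p = 0.0148, adjusted p = 0.326), and -0.60 without 2 samples. The eosinophil marker sum, from 14322 in M3 labelled Ahrr-/- to 49555 in Ahr-/- F2, had r = 0.77 with Nr4a1 (permutation p = 0.00147, adjusted p = 0.104; rho = 0.74, permutation p = 0.00337, adjusted p = 0.221), and 0.71 without 2 samples. Samples with more epithelial transcript thus tended to hold more Egr1 and Ier2 and less Nr4a1 and Nr4a2, and those with more eosinophil marker transcript more Nr4a1, without any of these relations passing adjustment. The stress list had r between -0.11 and 0.47 with the members.

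**Figure D4:**
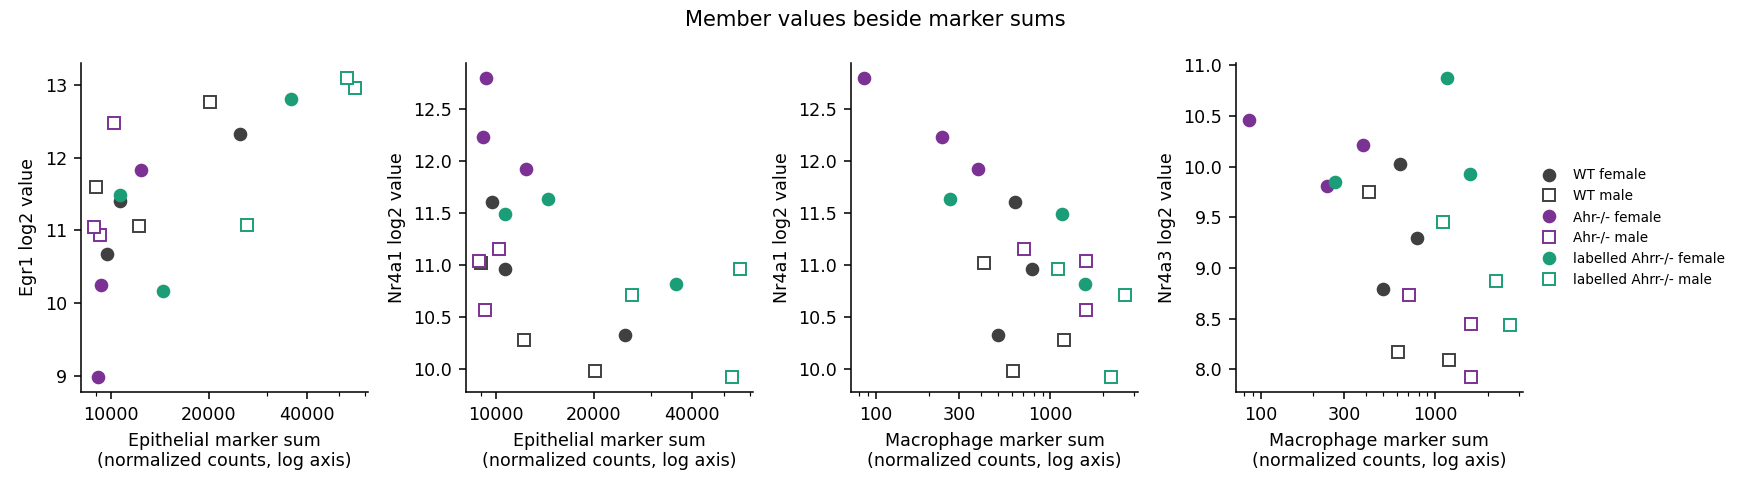
Log2 values of Egr1, Nr4a1 and Nr4a3 (vertical axes) against the summed normalized counts of 9 epithelial or 10 macrophage, monocyte and dendritic markers (horizontal log axes) in 18 samples, coloured by genotype and filled for females. The 3 Ahr-/- females, with macrophage sums of 85.2 to 383, had the highest Nr4a1, and all samples with an epithelial sum above 20000 other than M2 labelled Ahrr-/- had Egr1 of at least 12.33. Ahr-/- M3 had Egr1 of 12.47 at an epithelial sum of 10237.

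For each member the genes with the highest r over the same residuals, among 11468 genes and 18 samples, were sought. They were Ykt6 (0.90), Ier2 (0.90) and Pttg1ip (0.89) for Egr1, and Egr3 (0.95), Atf4 (0.86) and Perm1 (0.86) for Egr2. For Egr3 they were Egr2 (0.95), Perm1 (0.91) and Aldh7a1 (0.88). The NR4A genes sat elsewhere: Ppp3ca (0.97), Per1 (0.96) and Gadd45b (0.96) were nearest to Nr4a1, Tnfrsf1b (0.96), Myo1c (0.93) and Arih2 (0.93) to Nr4a2, and Etf1 (0.93), Zbtb21 (0.92) and Plscr1 (0.91) to Nr4a3. For Ier2 they were Mrps12 (0.93), Vdac2 (0.91) and Egr1 (0.90), and for Ier3 Ethe1 (0.81), Vangl2 (0.80) and Zfp455 (0.79). These are descriptions of the closest among all genes tested, so high values arise in part by selection.

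The promoters of the NR4A genes, of which 2 of 3 pairs were correlated past the threshold, were looked at for motifs. In RefSeq promoter sequences of GRCm38.p6, 5 of the 8 members were matched (Egr2, Ier3, Nr4a1, Nr4a2 and Nr4a3), and the 250 bases before each start were searched on both strands for the cAMP response element core TGACG, the full element TGACGTCA, the NR4A element AAAGGTCA, the AHR core GCGTG, the EGR element GCGTGGGCG and the CArG box bound by serum response factor. The core TGACG was present in 17.8% of 32851 promoters of this length, and 45 of them, or 0.137%, held 4 matches or more. This cutoff equals the number in the NR4A promoters, and the promoters were not matched for base content. The share is therefore a description and not a test, and a link to the correlations was not tested. Nr4a1, Nr4a2 and Nr4a3 each held 4. Their promoters are shown for that reason, from 5′ to 3′ on the strand of the gene, with each match of TGACG or its complement in capitals. They lie at chr15:101266596-101266845 on the plus strand for Nr4a1, chr2:57124004-57124253 on the minus strand for Nr4a2 and chr4:48045055-48045304 on the plus strand for Nr4a3. The window of Nr4a1 lies inside the gene (101253902 to 101274795) and that of Nr4a3 mostly so (gene start 48045078), so both precede internal starts.
Nr4a1: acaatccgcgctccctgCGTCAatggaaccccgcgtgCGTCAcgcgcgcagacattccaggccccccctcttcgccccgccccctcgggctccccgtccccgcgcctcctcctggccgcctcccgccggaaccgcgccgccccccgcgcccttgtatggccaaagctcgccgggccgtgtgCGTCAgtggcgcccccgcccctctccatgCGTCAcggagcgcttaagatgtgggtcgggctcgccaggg
Nr4a2: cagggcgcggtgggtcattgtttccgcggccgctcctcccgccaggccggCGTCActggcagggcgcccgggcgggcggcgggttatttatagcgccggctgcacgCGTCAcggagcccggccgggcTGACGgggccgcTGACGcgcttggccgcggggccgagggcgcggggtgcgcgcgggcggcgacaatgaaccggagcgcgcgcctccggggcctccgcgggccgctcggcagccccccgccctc
Nr4a3: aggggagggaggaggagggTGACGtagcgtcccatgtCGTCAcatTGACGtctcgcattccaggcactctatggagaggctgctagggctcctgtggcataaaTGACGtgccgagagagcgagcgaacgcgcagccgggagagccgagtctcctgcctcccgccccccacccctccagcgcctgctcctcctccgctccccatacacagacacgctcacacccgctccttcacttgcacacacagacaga
The full element (in 1.55% of promoters), the NR4A element (1.34%) and the EGR element (0.536%) had no match in these members. The AHR core, in 28.2% of promoters, had 2 matches in Nr4a1, of which 1 overlapped the core TGACG, 1 in Nr4a2, which also overlapped it, and 1 in Nr4a3. A match is a description of the letters and neither a site nor a cause.

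Egr2, with several starts in the table, is shown for 1 of them, at chr10:67537619-67537868 on the plus strand, since it held a CArG box (in 1.47% of promoters) together with 2 matches of TGACG, all in capitals.
Egr2: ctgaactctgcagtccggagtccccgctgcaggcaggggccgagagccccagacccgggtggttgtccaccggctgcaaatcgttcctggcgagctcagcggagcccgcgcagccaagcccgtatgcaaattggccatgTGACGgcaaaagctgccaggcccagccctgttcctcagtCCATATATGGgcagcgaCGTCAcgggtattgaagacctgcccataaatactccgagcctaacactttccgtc
Its CArG box CCATATATGG began 72 bases before the start. The Ier3 promoter held none of the motifs searched. No match says only that these letters are not in this window.

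Relatives and partners of the members were described from a list of 10 genes, of which 6 passed the minimum. Egr4 was at 0 in 17 of 18 samples. Rxra, the retinoid X receptor that pairs with NR4A1 and NR4A2, rose in Ahr-/- samples by 0.38 (SE 0.11, adjusted p = 0.0400), with 6 of 6 above the WT median, which was 1 of 6 called, beside 8.84% of all genes, and a list median of 0.11 beside 0.00 over all genes. Its call was lost without any of WT F2 (0.0566), F3 (0.0975), M1 (0.0575) or M3 (0.0584) or Ahr-/- F1 (0.0501), F2 (0.108), F3 (0.0907), M1 (0.0633) or M3 (0.0859). It was also lost with no minimum mean (0.0851), no sex covariate (0.0545), the groups fitted together (0.0831) and a replicate block (0.0748). The same held for females only (0.136), males only (0.577) and samples with an epithelial sum above 20000 left out (0.0505), where the difference was 0.41. Over the 15 alternatives other than leaving out 1 sample, the adjusted p ranged from 0.0308 to 0.577. Against WT, samples labelled Ahrr-/- had 0 of 6 called by limma and 0 with an unadjusted p under 0.05, with Ier5 at -0.26 (SE 0.21, adjusted p = 0.734) and Ier3ip1 at 0.23 (SE 0.15, adjusted p = 0.682). Between the labelled knockouts 0 of 6 were called by limma and 3 had an unadjusted p under 0.05, beside 3760 of all 11474 genes. Nab1, a corepressor of EGR proteins, was at -0.35 (SE 0.15, adjusted p = 0.106) and Rxra at 0.35 (SE 0.13, adjusted p = 0.0858). Between the sexes 0 of 6 were called and 3 had an unadjusted p under 0.05, beside 2145 of all 11468 genes. Ier5 was at -0.40 (SE 0.16, adjusted p = 0.166) and Nab1 at -0.39 (SE 0.15, adjusted p = 0.154).

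Factors that act upstream of immediate early genes were a list of 14 that were all tested. Between Ahr-/- and WT 0 were called by limma and 2 had an unadjusted p under 0.05, beside 2638 of all 11346 genes. Mrtfa, a coactivator of serum response factor, was at 0.28 (SE 0.09, adjusted p = 0.0755) and Crem at 0.28 (SE 0.27, adjusted p = 0.579). In samples labelled Ahrr-/- against WT 0 were called and 1 had an unadjusted p under 0.05, beside 853 of all 11546 genes. Mef2c was at 0.66 (SE 0.21, adjusted p = 0.502) and Elk3 at -0.30 (SE 0.19, adjusted p = 0.682). Between the labelled knockouts 0 were called and 4 had an unadjusted p under 0.05, beside 3760 of all 11474 genes. Mef2c was at -0.47 (SE 0.17, adjusted p = 0.0752) and Mrtfa at 0.46 (SE 0.17, adjusted p = 0.0706). Mef2d, a factor that binds the Nr4a1 promoter in T cells, fell by 0.47 in males (SE 0.11, adjusted p = 0.0253), with 9 of 9 below the female median, and was 1 of 14 called, beside 3.06% of all genes (2.46% lower). The call was lost without WT F2 (0.0581) or M3 (0.0547), Ahr-/- F1 (0.0517), F2 (0.0678), M1 (0.0551) or M2 (0.0587), or F1 (0.0501), F2 (0.0607) or M3 (0.0564) labelled Ahrr-/-, with no minimum mean (0.0510) and with the macrophage level as a covariate, where the difference was -0.39 (0.221).

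Of 16 genes of the ERK cascade, which drives EGR transcription, 15 were tested. Between Ahr-/- and WT 2 of 15 were called, both higher, beside 8.84% of all genes. Spry2, a feedback inhibitor of the cascade, rose by 0.71 (SE 0.14, adjusted p = 0.00394), with 6 of 6 above the WT median, and was not called in females or males alone. Between the labelled knockouts 3 of 15 were called, beside 14.9% of all genes, all higher in Ahr-/-, among them Braf by 0.56 (SE 0.18, adjusted p = 0.0480) and Rps6ka5 by 0.42 (SE 0.12, adjusted p = 0.0298), each in 6 of 6. Both calls were lost with the epithelial or macrophage level as a covariate, samples with an epithelial sum above 20000 left out, no minimum mean, no sex covariate and females only. Of all genes 1708 were called in the fit as reported. In these settings, in the same order, they were 297, 313, 290, 713, 994 and 109. Males alone also ended the call of Rps6ka5, and limma voom, the groups fitted together and a robust trend that of Braf. Rps6ka5 was lost without Ahr-/- F1 (0.0546), F2 (0.0735), M2 (0.0768) or M3 (0.0622) or F3 (0.0620), M2 (0.0517) or M3 (0.0677) labelled Ahrr-/-, and Braf without any sample but Ahr-/- F3 and F1 and M2 labelled Ahrr-/-, at up to 0.108 without M3 labelled Ahrr-/-. Against WT, samples labelled Ahrr-/- had 0 of 15 called by limma and 1 with an unadjusted p under 0.05, beside 853 of all 11546 genes. Spry2 was at 0.48 (SE 0.16, adjusted p = 0.546) and Braf at -0.37 (SE 0.21, adjusted p = 0.671). Between the sexes 0 of 15 were called and 2 had an unadjusted p under 0.05, beside 2145 of all 11468 genes, with Spry2 at -0.33 (SE 0.13, adjusted p = 0.155).

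The other immediate early genes, a list of 44 of which 42 were tested, moved in both directions between Ahr-/- and WT, where 8 of 42 were called, 6 higher and 2 lower, beside 8.84% of all genes, with a list median of 0.21 beside 0.00 over all genes. Atf3, a stress-induced repressor of the ATF family, fell by 1.42 (SE 0.13, adjusted p = 3.4e-06), with all 6 Ahr-/- samples below every WT sample. Plk2 rose by 1.33 (SE 0.26, adjusted p = 0.00438), Myc by 0.99 (SE 0.12, adjusted p = 3.63e-05), the ERK phosphatase gene Dusp6 by 0.85 (SE 0.10, adjusted p = 5.37e-05) and Cited2 by 0.79 (SE 0.13, adjusted p = 0.000789), each with 6 of 6 above the WT median, and for Myc, Dusp6 and Cited2 above every WT sample. Sgk1 rose by 0.67 (SE 0.19, adjusted p = 0.0380) with 6 of 6 above the WT median, and was not called without WT F1 (0.0529), F2 (0.0569) or M3 (0.0668) or Ahr-/- F2 (0.0891), F3 (0.0908), M1 (0.0725) or M2 (0.0614). It was also lost with the epithelial level as a covariate (difference 0.52, adjusted p = 0.118), samples with an epithelial sum above 20000 left out (0.0875), no sex covariate (0.069), the groups fitted together (0.0744), no minimum mean (0.143), females only (0.172) and males only (0.221), and over the 14 alternatives other than leaving out 1 sample the adjusted p ranged from 0.00576 to 0.221. Plk2 and Cited2 were not called in males alone. Against WT, samples labelled Ahrr-/- had 0 of 42 called by limma and 9 with an unadjusted p under 0.05, beside 853 of all 11546 genes. Ccn1 was at 0.68 (SE 0.27, adjusted p = 0.617) and Klf4 at 0.59 (SE 0.24, adjusted p = 0.617). Between the labelled knockouts 9 of 42 were called, 4 higher and 5 lower in Ahr-/-, beside 14.9% of all genes. Atf3 was lower by a difference of -1.88 (SE 0.14, adjusted p = 1.24e-06) and Ccn1 of -0.90 (SE 0.21, adjusted p = 0.0137), and Myc was higher by 1.31 (SE 0.17, adjusted p = 0.000232), Plk2 by 1.19 (SE 0.20, adjusted p = 0.00201), Dusp6 by 0.80 (SE 0.16, adjusted p = 0.00534) and Rgs2 by 0.79 (SE 0.19, adjusted p = 0.0154), each in 6 of 6. Ccn1, Plk2, Dusp6 and Rgs2 were not called with the epithelial level as a covariate, nor Ccn1, Plk2 and Rgs2 with the macrophage level. Of all 11474 genes, 297 were called with the epithelial and 313 with the macrophage level, against 1708 in the fit as reported. Samples with an epithelial sum above 20000 left out, and females only, ended the calls of Ccn1, Dusp6 and Rgs2, no minimum mean those of Ccn1 and Rgs2, and males only that of Rgs2. In the same order, these settings called 290 of 11276, 109 of 11370, 713 of 22708 and 1234 of 11582 genes.

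Between the sexes the same list was mostly lower in males, as the NR4A genes were: 14 of 42 were called, 13 lower and 1 higher, beside 3.06% of all genes (2.46% lower), and 38 of 42 had a lower estimate, with a median of -0.50 beside 0.01 over all genes. Gadd45b, a stress sensor, fell by 1.42 (SE 0.24, adjusted p = 0.00484), Dusp2 by 0.94 (SE 0.20, adjusted p = 0.0153), the clock gene Per1 by 0.90 (SE 0.19, adjusted p = 0.0150), Csrnp1 by 0.85 (SE 0.17, adjusted p = 0.00973) and the NF-kB inhibitor gene Nfkbia by 0.85 (SE 0.16, adjusted p = 0.00798), each with 9 of 9 males below the female median. Nfkbiz fell by 1.02 (SE 0.26, adjusted p = 0.0391) with 8 of 9 below it. Leaving out any of 12 of the 18 samples ended the call of Nfkbiz, with adjusted p from 0.0535 without WT F3 to 0.093 without Ahr-/- F2, the exceptions being WT F1, M1 and M2, Ahr-/- F3 and F3 and M1 labelled Ahrr-/-. With the macrophage level as a covariate, 2 of the 42 were called, beside 23 of all 11468 genes, and none of these 6 genes was. Their differences were then -1.13 for Gadd45b (adjusted p = 0.0712), -0.86 for Nfkbiz (0.260), -0.79 for Dusp2 (0.158), -0.67 for Per1 (0.177), -0.71 for Csrnp1 and -0.70 for Nfkbia (0.106). Without samples whose epithelial sum exceeded 20000, 8 of the 42 were called, beside 219 of all 11307 genes. Nfkbiz (difference -0.80) and Dusp2 (difference -0.96, not smaller) were not among them. Nfkbiz was also not called with no minimum mean and with limma voom.

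**Figure D5:**
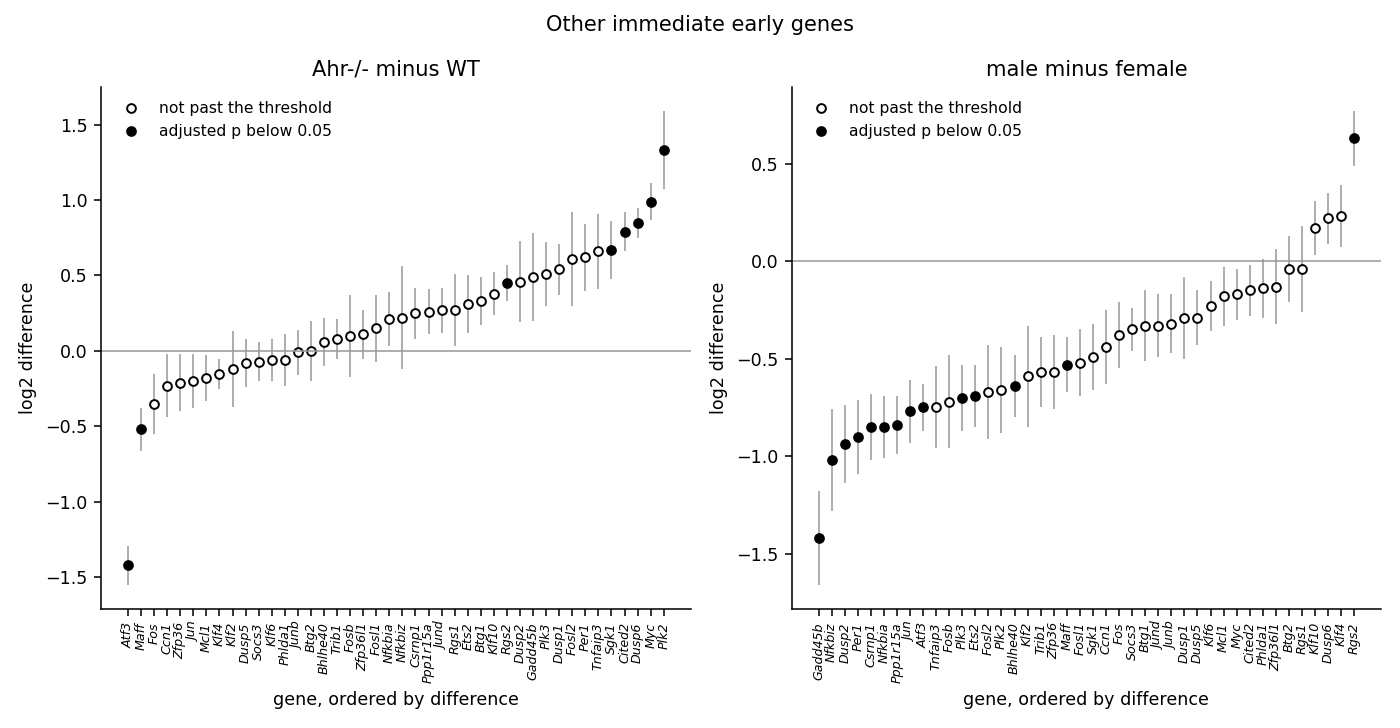
Log2 differences (vertical axes) with 1 SE of 42 other immediate early genes (horizontal axes, ordered by difference) between Ahr-/- and WT (12 samples) and between males and females (18 samples), filled where the adjusted p was below 0.05. Atf3 (-1.42) and Plk2 (1.33) are at the ends of the genotype plot, and 38 of 42 genes are below 0 in the sex plot.

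Stress and heat shock genes, often induced by cell isolation, were listed as 10 of which 9 were tested. Hsp90aa1 fell by 0.63 in Ahr-/- against WT (SE 0.13, adjusted p = 0.00615, 6 of 6 below the WT median), 1 of 9 called, beside 8.84% of all genes, and the list median was -0.52. It was not called with the groups fitted together or in females alone. In samples labelled Ahrr-/- against WT 0 were called by limma and 0 had an unadjusted p under 0.05, with Dnajb1 at 0.48 (SE 0.48, adjusted p = 0.768) and Hspa8 at 0.45 (SE 0.34, adjusted p = 0.720). Hspe1 was lower in Ahr-/- between the labelled knockouts, by a difference of -0.80 (SE 0.25, adjusted p = 0.0470, 6 of 6), 1 of 9 called, beside 14.9% of all genes, with a list median of -0.77. It was not called without 9 of the 12 samples, at up to 0.107 without Ahr-/- M3, the exceptions being Ahr-/- F3 and F1 and M2 labelled Ahrr-/-. The call also ended with either marker level as a covariate, samples with an epithelial sum above 20000 left out, no minimum mean, no sex covariate, the groups fitted together, a robust trend and females only. Of all genes 1708 were called in the fit as reported, and 297 and 313 with the epithelial and macrophage level. For the other settings, in the same order, they were 290, 713, 994, 1692, 1669 and 109. Hspa1b fell by 1.87 in males (SE 0.51, adjusted p = 0.0491, 8 of 9 below the female median), 1 of 9 called, beside 3.06% of all genes, and lost the call without any of 14 samples, at up to 0.101 without Ahr-/- F2, the exceptions being WT F2, F3 and M3 and F3 labelled Ahrr-/-. The list median was -0.53. With limma voom its difference was -4.02 (adjusted p = 0.108). The call also ended with the epithelial (difference -1.81, adjusted p = 0.0578) or macrophage level as a covariate (-1.83, adjusted p = 0.225), where the difference was close to unchanged, and with a robust trend (0.0621), no minimum mean (0.105) and samples with an epithelial sum above 20000 left out (0.130). The survival genes listed beside Ier3 numbered 8, of which 7 were tested. Bcl2a1a, Bcl2a1b and Bcl2a1d, near-identical copies whose reads cannot be split with certainty, rose in Ahr-/- against WT by 1.15, 1.04 and 0.99 (SE 0.14, 0.20 and 0.20, adjusted p = 7.66e-05, 0.00419 and 0.00543), and were higher than in samples labelled Ahrr-/- by 1.05, 1.11 and 0.98 (SE 0.17, 0.19 and 0.15, adjusted p = 0.00112, 0.00188 and 0.000666), each in 6 of 6, and these were the 3 of 7 called in each comparison, beside 8.84% and 14.9% of all genes. As near-identical copies they are not separate calls. Between the labelled knockouts none of them was called with the epithelial level as a covariate, Bcl2a1a was not in females alone, and Bcl2a1d was not without samples whose epithelial sum exceeded 20000. In the same order, these settings called 297, 109 and 290 of all genes. Against WT Bcl2a1b was not called in males alone and Bcl2a1d in neither sex alone. In samples labelled Ahrr-/- against WT 0 were called and 0 had an unadjusted p under 0.05, with Bcl2l11 at 0.17 (SE 0.30, adjusted p = 0.868) and Mcl1 at -0.11 (SE 0.22, adjusted p = 0.881). In males 2 of 7 were called, beside 3.06% of all genes, Bcl2l11, which promotes cell death, by a fall of 1.16 (SE 0.23, adjusted p = 0.00978, 9 of 9 below the female median), and Bcl2a1a by 0.60 (SE 0.15, adjusted p = 0.0315, 6 of 9). Bcl2a1a was not called without any of 10 samples, at up to 0.0698 without Ahr-/- M1, the exceptions being WT F1 and M1, Ahr-/- F1, F3 and M3 and F3, M1 and M3 labelled Ahrr-/-. With the macrophage level as a covariate 23 of all 11468 genes were called and neither of these was. Their adjusted p was 0.117 for Bcl2l11 and 0.189 for Bcl2a1a. Both genes still had a lower estimate in males. The difference of Bcl2a1a was then -0.58, close to unchanged, and that of Bcl2l11 was somewhat smaller than its fall of 1.16. The part of macrophages in these differences was not tested. Bcl2a1a was also not called with no minimum mean and without samples whose epithelial sum exceeded 20000.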

How the data were processed

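RNA from small intestine eosinophils was converted to cDNA with NuGEN Ovation v2 and sequenced single-end on an Illumina HiSeq, with 6 samples per genotype. The authors aligned reads to GRCm38 with STAR 2.5.2, estimated counts with RSEM 1.3.0 and applied the variance stabilization of DESeq2 in R 4.0.3. The deposited values are on this log2 scale and were used as deposited. Counts were recovered by turning the stabilization back: 100.0% of values came out whole within 0.0001. Total counts per sample ran from 3842977 to 12046933, and low members such as Egr3 rest on few counts in some samples (24 in Ahr-/- F1).

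Genes with a mean at least 1 above the lowest value were tested with limma 3.58.1 (trend, two-sided, Benjamini-Hochberg adjustment over all genes tested, threshold 0.05) in R 4.3.3. Each genotype comparison used its own 12 samples with sex as covariate, and the sex comparison and the interactions were fitted likewise, the sex comparison over 18 samples with genotype. The fits were tested on simulated data. Comparisons with WT share the WT samples. Replicate numbers were not taken to pair the samples. Correlations used 100000 permutations, two-sided, on values less the mean of their genotype and sex, with marker sums as log2(sum + 1). Python 3.11.15, numpy 2.4.6, scipy 1.17.1, pandas 2.3.3 and matplotlib 3.10.9 were used.

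Genes named are the 8 members, the genes of the label check, up to 6 called genes per list and comparison with the largest differences (the 2 largest where none was called), and the 3 genes most like each member. Some genes that this rule selects are not reported here. Members and lists were chosen with earlier results of these data known. Lists were partners and relatives, upstream factors, the ERK cascade, other immediate early genes, stress and heat shock genes, survival relatives of Ier3 and cell type markers. For the remaining marker lists, summed normalized counts were 486 to 1680 for 7 neutrophil markers (most abundant Cxcr2), 17.6 to 176 for T cell and innate lymphocyte markers (8 of 9 in the table), 67.9 to 6004 for B and plasma cell markers (5 of 6, Jchain), 58.8 to 538 for 5 mast cell markers (Kit), 15.6 to 3454 for 8 pancreatic markers (Ctrb1) and 1921 to 3928 for 8 fibroblast and endothelial markers (Pecam1). Alternatives were no minimum and a minimum of 3, centring, quantile normalization, log2(count + 1), limma voom, no sex covariate, all 18 samples, a robust trend, a replicate block and each sample left out. Marker level covariates, samples with an epithelial sum above 20000 left out, and females or males only were chosen after seeing the data. Leaving out samples above 20000 kept only the females F1 and F2 of those labelled Ahrr-/-.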

Additional observations from a re-analysis of the deposited data

How the results depend on the processing

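Of the members called between Ahr-/- and WT, 1 in the fit as reported, the count was 0 with no minimum mean, no sex covariate, the epithelial level as covariate, samples with an epithelial sum above 20000 left out, females only and males only, and 0 to 1 with each sample left out. Of all genes, 1003 of 11346 were called between Ahr-/- and WT in the fit as reported. For the alternatives with 0 members, in the order given, they were 623 of 22708, 851 of 11346 and 1131 of 11346. The last of them had 890 of 11320, 241 of 11410 and 306 of 11293. Between the labelled knockouts the count of members was 1. It was 0 with no minimum mean, the stricter minimum, limma voom, no sex covariate, all 18 samples, a robust trend, either marker level as covariate, samples with an epithelial sum above 20000 left out, females only and males only, 2 with centring and quantile normalization, and 0 to 2 with each sample left out. Of all genes, 1708 of 11474 were called there in the fit as reported. In the order given they were 713 of 22708, 828 of 5372, 1728, 994, 1692 of 11468 and 1669. With the epithelial level they were 297, with the macrophage level 313 and with those samples left out 290 of 11276. Females had 109 of 11370, males 1234 of 11582, centring 1808 and quantile normalization 1848. Between the sexes the count of members was 4, with 2 under no minimum mean, 3 with the stricter minimum, the epithelial level as covariate and samples with an epithelial sum above 20000 left out, 0 with the macrophage level as covariate and 2 to 4 with each sample left out. Of all genes, 351 of 11468 were called between the sexes in the fit as reported. In the order given they were 163 of 22708, 299 of 5360, 319 of 11468, 219 of 11307 and 23 of 11468. For samples labelled Ahrr-/- against WT and for the interactions the count of members was 0 throughout by limma. The former had 9 of all 11546 genes called in the fit as reported. The 5 correlated pairs were 4 with centring and 4 to 5 with each sample left out. The 3 sex calls with the stricter minimum lack Ier3, whose mean of 6.97 lay under that minimum, so it was not tested there. The cause of the other moves was not tested.

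No called difference changed sign. Differences that did, none past the threshold, are given by alternative. With the epithelial level as covariate, against WT in Ahr-/-, they were Nr4a2 -0.27, Nr4a3 -0.20, Ier2 0.17 and Crem -0.27; in samples labelled Ahrr-/-, Egr1 -0.50, Ier2 -0.17, Nr4a2 0.16, Ier5 0.06 and Mcl1 0.17; and between the labelled knockouts Egr1 0.29 and Ier2 0.29. With an epithelial sum above 20000 left out they were, in Ahr-/-, Nr4a2 -0.11, Nr4a3 -0.03, Ier2 0.15 and Crem -0.09. In samples labelled Ahrr-/-, of which only the females F1 and F2 were kept, they were Egr1 -0.22, Ier3 -0.14, Ier5 0.21, Mef2c -0.09, Elk3 0.06, Klf4 -0.03 and Mcl1 0.30, and between the labelled knockouts Ier2 0.29. With females only they were, in Ahr-/-, Egr2 0.01 and Ier2 0.14, in samples labelled Ahrr-/- Ier3 -0.03, Ier5 0.05, Braf 0.00 and Mcl1 0.30, and between the labelled knockouts Ier2 0.07. With males only they were, in Ahr-/-, Egr3 0.07, Nr4a2 -0.10 and Nr4a3 -0.31, and in samples labelled Ahrr-/- Egr3 0.27 and Bcl2l11 -0.08. With the macrophage level as covariate they were, in samples labelled Ahrr-/-, Egr1 -0.02 and Mcl1 0.07, and for Ier2 0.06 between the sexes and 0.07 for the interaction of Ahr-/- with sex. With quantile normalization Ier2 was 0.01 between the sexes. With each sample left out the ranges were -0.19 to 0.02 for Ier2 in Ahr-/-, -0.12 to 0.16 for Egr3, -0.41 to 0.00 for Nr4a2, -0.03 to 0.40 for Bcl2l11 and -0.20 to 0.04 for Mcl1 in samples labelled Ahrr-/-, -0.27 to 0.11 for Ier3 in the interaction of Ahr-/- with sex, and -0.17 to 0.06 for Egr2 and -0.08 to 0.07 for Ier2 between the sexes.

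Of the called list genes that the rule for named genes selects, 10 of 13 between Ahr-/- and WT, 9 of 13 between the labelled knockouts and 6 of 10 between the sexes were called with every sample left out, and 4, 2 and 0 under all other alternatives. Between samples with the same replicate number r ran from -0.59 to 0.47, with both signs, and whether they deviate together was not tested. With a replicate block, 1 member was called between Ahr-/- and WT (918 of all genes, 1003 without it). Between samples labelled Ahrr-/- and WT 0 were called by limma (4 of all genes, 9 without it). Between the labelled knockouts 2 were (1946 of all genes, 1708 without it), Egr1 (adjusted p = 0.00995, range 0.00995 to 0.918) and Nr4a1 (0.0397). With 6 samples per group and an SE of 0.44 for Egr1 between Ahr-/- and WT, smaller differences could go undetected, and the part of depth was not tested.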
